A study of Mus musculus with 18 samples.

Results

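Mural cells wrap the outside of blood vessels: smooth muscle cells lie on arteries and veins, and pericytes on capillaries. The data on 10 genes used as markers of these cells, Acta2, Tagln, Myl9, Des, Pdgfrb, Notch3, Rgs5, Kcnj8, Abcc9 and Vtn, are described here in the brain of mice without Brca1 in the neural lineage. Every probe set annotated to exactly 1 of these genes was taken, which gave 21 probe sets among the 45037 of the study. The cortex A chip held 18 of them among 22626, the cortex B chip 3 among 22511, and the array used for the samples titled rest all 21. Affymetrix arrays measured total RNA at postnatal day 7 in 18 hybridisations, 3 per genotype in each of the 3 tables. The knockout mice carried a Brca1 allele floxed from exon 5 to exon 13 over a null allele in which an inverted neo cassette sits at exon 11, together with Cre driven by nestin regulatory sequence, which is active in neural progenitors. The other mice are labelled wild type, with no further detail. No strain was stated, which cells had recombined was not measured, and the labels give the source of the rest samples only as P7 brain. The design text gives 3 animals per genotype for the cortex. It does not say whether the rest samples came from separate animals, so their p-values measure the spread between these samples, which may be technical.

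Pericytes are drawn to growing brain vessels by platelet-derived growth factor B from endothelial cells, which acts on the receptor encoded by Pdgfrb. Notch3 is the main Notch receptor of arterial smooth muscle, where Notch signals act on DNA through Rbpj. Serum response factor drives genes of the contractile apparatus, such as Acta2, Tagln and Myl9, from CArG boxes in their control regions. Mural cells lie close to the fibroblasts of the meninges, which also express Pdgfrb. The question behind the comparisons was whether the vessel-wall genes moved like the meningeal genes, within each table.

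The 250 bases upstream of the start of Myl9, Vtn and Rgs5 are shown because Myl9 and Vtn were called in the knockout cortex and Rgs5, a pericyte gene, was not. The sequences are RefSeq's, on the plus strand of GRCm38.p6, from chr2:156775214-156775463 for Myl9, chr11:78498870-78499119 for Vtn and chr1:169655251-169655500 for Rgs5. Capitals mark a CArG box in Myl9, 161 to 152 bases before the start, and the letters TGGGAA, the core of the Rbpj site, in Vtn, 236 to 231 bases before the start.
Myl9: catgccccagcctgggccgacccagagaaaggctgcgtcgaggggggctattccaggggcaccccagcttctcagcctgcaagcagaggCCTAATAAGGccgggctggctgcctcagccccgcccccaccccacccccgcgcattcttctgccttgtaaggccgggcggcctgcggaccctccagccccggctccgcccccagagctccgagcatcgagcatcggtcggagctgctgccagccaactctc
Vtn: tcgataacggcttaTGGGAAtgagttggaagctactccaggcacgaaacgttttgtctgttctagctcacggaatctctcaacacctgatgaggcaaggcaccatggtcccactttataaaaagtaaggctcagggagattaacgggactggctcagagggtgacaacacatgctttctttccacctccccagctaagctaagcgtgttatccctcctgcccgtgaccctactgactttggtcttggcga
Rgs5: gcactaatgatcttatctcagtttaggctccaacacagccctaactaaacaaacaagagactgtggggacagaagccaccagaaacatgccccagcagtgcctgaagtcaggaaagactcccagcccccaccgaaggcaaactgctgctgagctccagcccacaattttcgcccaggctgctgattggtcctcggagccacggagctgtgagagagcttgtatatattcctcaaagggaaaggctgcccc
Both strands were searched and no CArG box overlapped a TGGGAA. Of the 10 members, 8 had a promoter in the table, all but Tagln and Pdgfrb. A CArG box was counted only where CC and GG enclosed a run of A and T alone, and was found in 1 of the 8. The share was 1.47% of 32851 promoters of the same length. Near matches with another letter in the run were not counted, such as CCCTATATGG upstream of Acta2. TGGGAA was found in 3 of the 8, Acta2, Abcc9 and Vtn, against 21.6% of those promoters. These are matches of letters and say nothing about binding. The members lie on 8 chromosomes, Kcnj8 and Abcc9 are neighbours 16.2 kb apart on chromosome 6, and Vtn lies on chromosome 11, 23.0 Mb before Brca1.

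Between 42.0% and 66.4% of the probe sets of an array were blank, for a reason not stated, and a blank was never read as a level. Signals below are scaled to a common level within a table, and changes are knockout minus wild type on the log2(signal + 16) scale, which understates the change of dim probe sets. The 3' to 5' actin ratio was 1.37 to 1.49 on knockout and 1.40 to 1.51 on wild-type arrays of the A chip. It was 1.94 to 2.40 on knockout and 1.86 to 2.16 on wild-type arrays of the B chip. For the rest samples it was 1.66 to 1.96 on knockout and 1.64 to 1.70 on wild-type arrays. Knockout replicate 3 had the highest ratio on the B chip and in the rest samples. The Brca1 probe set listed on all arrays did not mark the genotype: it averaged 52.3 in knockout and 41.3 in wild-type cortex (n = 3 each, log2 change 0.25, limma adjusted p = 0.496). The exons it reads are not given. In every table the Y-chromosome gene Eif2s3y had a signal in knockout replicates 1 and 2 alone, and Xist was bright in the other samples of the A chip and the rest table, so genotype was partly joined with sex. Markers of brain regions varied between samples, and their part in the results was not tested. In the cortex the striatal gene Drd2 read 49.6 in knockout replicate 2 and was blank in the other 2 knockouts, against 147, 43.2 and 160 in wild type. In the rest samples the hindbrain and spinal cord gene Hoxb5 was listed in knockout replicates 2 and 3, at 145 and 155, and in 0 wild-type samples. The Purkinje cell gene Pcp2 there read 51.9, 163 and 1171 in knockout replicates 1 to 3, and 280, 121 and 1240 in wild-type replicates 1 to 3.

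In the cortex, 3 mural genes rose in the knockout: Vtn and Pdgfrb each to about 2 times the wild-type level or more, and Myl9 by less. No member fell. Rgs5, Abcc9 and Notch3 did not pass the test, and the smooth muscle genes Acta2 and Tagln and the channel gene Kcnj8 were blank on all 6 A chip arrays. Of 18 probe sets, 11 were listed on at least 2 arrays of each genotype and were tested, and 4 of the 11 rose at a limma adjusted p under 0.05. Over the whole A chip 2.3% of 12065 probe sets rose and 0.713% fell. The 11 tested probe sets stand for 6 genes and do not speak for the other 4.

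The contractile members were mostly out of reach of the data. Acta2, the smooth muscle actin, had blanks throughout the cortex in its 2 probe sets on the A chip and its single one on the B chip. Tagln, the actin-binding protein transgelin, was blank on all 6 A chip arrays as well. Des, the muscle intermediate filament protein desmin that pericytes also contain, was listed once, at 39.2 in wild-type replicate 1, in 1 of its 2 probe sets. Of other contractile markers, Myh11, Cnn1, Smtn, Myocd, Lmod1 and Actg2 were blank on every A chip array, while Mylk, Cald1, Tpm1, Tpm2 and Pln were tested. Mylk was called in 1 probe set, as given below. Cald1 changed by 0.53 and 0.39 (limma adjusted p = 0.236 and 0.256), Tpm2 by 0.27, Tpm1 by 0.08 and 0.03, and Pln by -0.12, without a call. For the members, the label of vascular smooth muscle therefore rests in these cortex data on genes that smooth muscle shares with pericytes.

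Myl9, a regulatory light chain of myosin, was the contractile member with values. Its signal was 179, 224 and 174 in the knockout cortices, against 115, 123 and 130 in the wild-type cortices. All knockout arrays were above all wild-type arrays, with knockout replicate 2 the highest. The means were 192 ± 27.2 in knockout and 123 ± 7.41 in wild type (SD, n = 3 each), a ratio of 1.57. On the log2 scale this was 0.58 (SE 0.128, limma adjusted p = 0.0352). This call was close to the threshold and was lost whenever any 1 of the 6 arrays was left out, with limma adjusted p between 0.0547 and 0.14, and with quantile normalization (0.0614).

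Of the receptors and signalling members, Pdgfrb rose. Its listed probe set (1436970_a_at) read 133, 247 and 219 in the knockout cortices, against 71.0, 108 and 59.9 in the wild-type cortices. The groups did not overlap, but the arrays within each group were spread widely. The means were 199 ± 59.3 in knockout and 79.6 ± 25.1 in wild type (SD, n = 3 each), a ratio of 2.50. The change was 1.16 on the log2 scale (SE 0.23, limma adjusted p = 0.0207). The call was lost without knockout replicate 2 (limma adjusted p = 0.106), knockout replicate 3 (0.09), wild-type replicate 1 (0.0766) or wild-type replicate 3 (0.0577). The other Pdgfrb probe set was blank on all 6 arrays.

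Notch3 showed no shift that could be measured. Its brighter probe set (1421965_s_at) read 243, 255 and 222 in the knockout cortices, against 240, 206 and 263 in the wild-type cortices, and the groups overlapped. The log2 change was 0.02 with a 95% interval from -0.23 to 0.28 (limma adjusted p = 0.95). The dimmer one read 48.9, 61.8 and 46.9 in knockout, against 72.1, 50.1 and 49.6 in wild type, a log2 change of -0.09 with an interval from -0.46 to 0.28 (limma adjusted p = 0.848). These intervals leave out a doubling, the size seen for Vtn.

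Rgs5, a regulator of G-protein signalling that is a standard pericyte marker, was higher by small amounts that did not pass. Probe set 1417466_at read 988, 1003 and 947 in the knockout cortices, against 817, 710 and 839 in the wild-type cortices. All 3 knockout arrays lay above all 3 wild-type arrays, yet the log2 change of 0.31 (95% interval 0.13 to 0.49) had a limma adjusted p of 0.0814. Probe set 1420942_s_at read 253, 324 and 297 in knockout, against 182, 163 and 240 in wild type, a log2 change of 0.55 (limma adjusted p = 0.0806). It passed once, without wild-type replicate 3 (0.0217). Probe set 1420940_x_at, blank on wild-type replicate 2, gave 0.33 (limma adjusted p = 0.278), and 1420941_at, whose groups overlapped, gave 0.21 (limma adjusted p = 0.513). The 4 Rgs5 probe sets thus had positive changes in the cortex and none was called.

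Kcnj8 and Abcc9 encode the pore and the sulphonylurea receptor of the vascular ATP-sensitive potassium channel. Kcnj8 was blank on all 6 A chip arrays. Abcc9 probe set 1420408_a_at was dim, at 54.4, 55.2 and 54.1 in the knockout cortices, against 35.5, 39.6 and 34.8 in the wild-type cortices. The groups were far apart relative to their own spread, but the change of 0.42 on the log2 scale had a limma adjusted p of 0.146. It passed without the intensity trend in the variance model (0.0439), a setting in which dim and bright probe sets share a common prior variance. The B chip probe set 1435752_s_at read 389, 542 and 538 in knockout, against 422, 373 and 439 in wild type, with overlapping groups and a log2 change of 0.23 (limma adjusted p = 0.871). It was the only one of 3 member probe sets tested on the B chip, where 0.281% of 7838 probe sets were called.

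Vtn, the matrix and plasma protein vitronectin, made by pericytes in the brain, changed the most firmly. Probe set 1420484_a_at read 1287, 1219 and 1136 in the knockout cortices, against 544, 656 and 606 in the wild-type cortices. The lowest knockout array was well above the highest wild-type array. The means were 1214 ± 75.8 in knockout and 602 ± 55.8 in wild type (SD, n = 3 each), a ratio of 2.02. This is 0.99 on the log2 scale (SE 0.0879, limma adjusted p = 0.00016).

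The second Vtn probe set, 1455098_a_at, moved in the same direction. It read 492, 465 and 418 in the knockout cortices, against 143, 175 and 252 in the wild-type cortices, again without overlap. The means were 458 ± 37.2 in knockout and 190 ± 56.0 in wild type (SD, n = 3 each), a ratio of 2.41, which is 1.24 on the log2 scale (SE 0.166, limma adjusted p = 0.00215). Both probe sets kept their call with any 1 array left out.

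**Figure D1:**
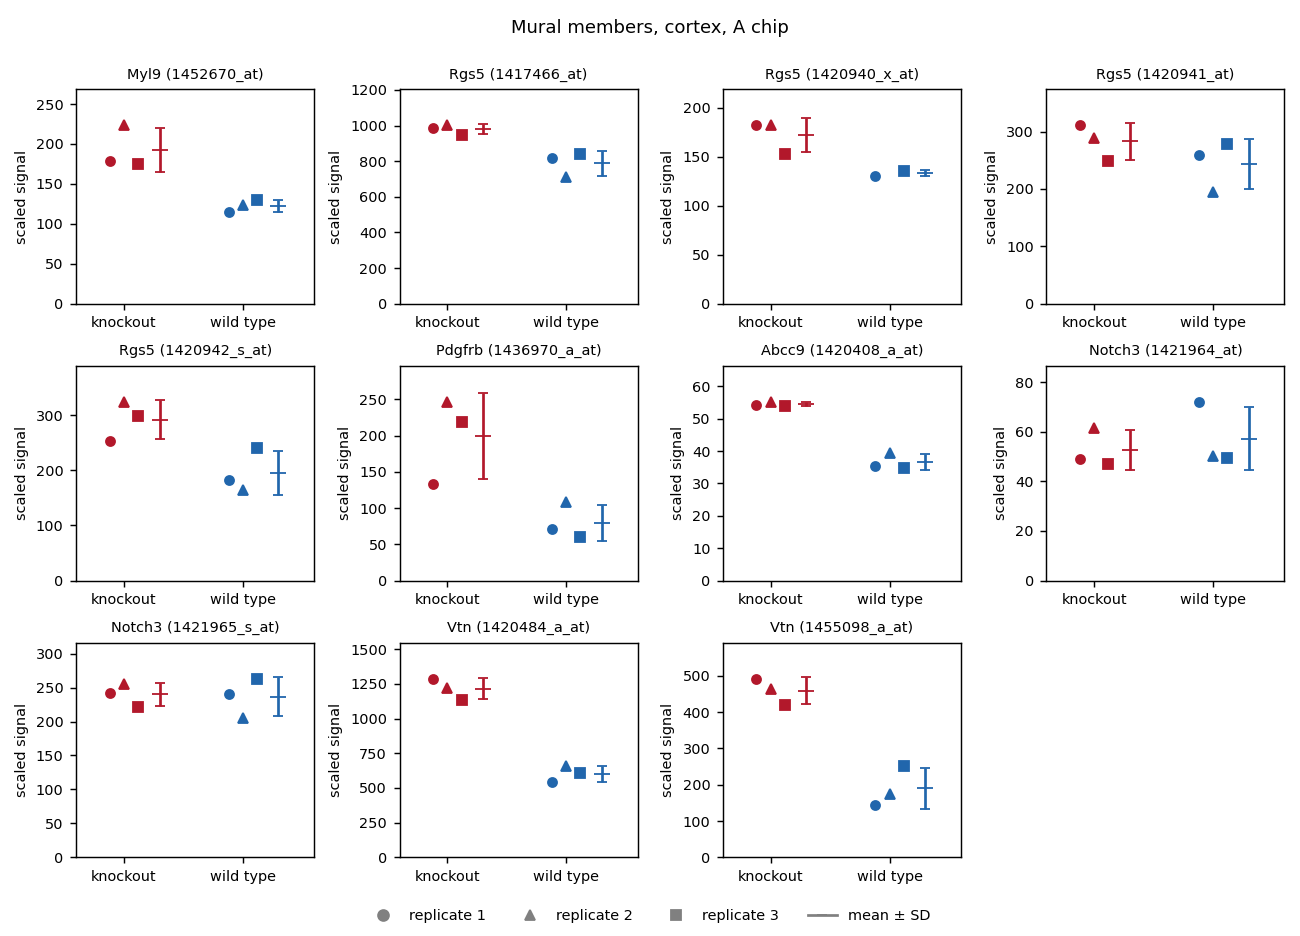
Scaled signal (linear axis from 0) of each tested member probe set in the cortex, knockout left and wild type right. Each symbol is 1 array and the bars are mean ± SD. For Vtn, Pdgfrb, Myl9 and the dim Abcc9 probe set every knockout array lies above every wild-type array, and for Notch3 the arrays mix. The listed arrays of Rgs5 1417466_at, 1420940_x_at and 1420942_s_at also separate in this way, and those of Rgs5 1420941_at overlap.

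Counted over the tested members of the A chip, 8 of 11 probe sets had every knockout array above every wild-type array and 0 had every one below, where 11.6% and 10.8% of all tested probe sets did so. An unadjusted limma p under 0.05 with a positive change was found for 8 of the 11, against 8.99% of all. The probe sets of 1 gene share their target, so these are counts over 6 genes. The 4 called probe sets became 2 without knockout replicate 2, knockout replicate 3 or wild-type replicate 1. Knockout replicate 3, the one with the female pattern of sex-linked transcripts, was above every wild-type array for each of the 4 called probe sets. With a term for that pattern, which leaves it as the single knockout array against the wild type, only Vtn 1420484_a_at was called, and Pdgfrb still changed by 1.33 and Myl9 by 0.46 on the log2 scale (limma adjusted p = 0.158 and 0.427).

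In the rest samples no member passed. Of 21 probe sets 12 were tested and 0 were called by limma, against 0.145% of 21407 that rose and 0.168% that fell over the table. Of the 12, 6 changes were positive and 6 negative, and 50.2% of all changes in the table were positive. At an unadjusted limma p under 0.05 there were 3, all upward, where 4.47% of all probe sets stood: the 2 of Vtn and the 1 of Pdgfrb. The same 3 had every knockout array above every wild-type array, which held for 8.42% of all tested probe sets.

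Vtn 1420484_a_at read 1217, 1309 and 1502 in the knockout rest samples, against 1144, 763 and 1019 in the wild-type ones. The gap between the closest arrays of the groups was small. The log2 change was 0.47 (95% interval 0.16 to 0.78, limma adjusted p = 0.259).

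Vtn 1455098_a_at read 476, 540 and 500 in knockout, against 415, 222 and 332 in wild type, with wild-type replicate 2 the lowest in this probe set as in the other. The log2 change was 0.66 (95% interval 0.25 to 1.08, limma adjusted p = 0.238). Pdgfrb read 247, 184 and 215 in knockout, against 131, 89.5 and 157 in wild type, a log2 change of 0.73 (95% interval 0.29 to 1.16, limma adjusted p = 0.211). Wild-type replicate 2 was again the lowest array.

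Myl9 read 227, 281 and 239 in the knockout rest samples, against 245, 155 and 218 in the wild-type ones, and the groups overlapped (log2 change 0.27, limma adjusted p = 0.626). The Rgs5 probe sets did not point one way. Probe set 1417466_at read 1210, 1291 and 1372 in knockout, against 1468, 1239 and 1266 in wild type (log2 change -0.03, limma adjusted p = 0.929). Probe set 1420942_s_at read 217, 236 and 355 in knockout, against 282, 369 and 530 in wild type, with overlap (log2 change -0.51, limma adjusted p = 0.485). The other Rgs5 probe sets changed by 0.07 and -0.23.

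Abcc9 overlapped between the genotypes in both of its listed probe sets. Probe set 1420408_a_at averaged 100.1 ± 6.81 in knockout and 87.2 ± 22.2 in wild type, and 1435752_s_at averaged 278 ± 27.4 in knockout and 302 ± 33.7 in wild type (SD, n = 3 each), with log2 changes of 0.19 and -0.11. Notch3 1421965_s_at read 510, 554 and 608 in knockout, against 605, 533 and 589 in wild type, and changed by -0.05 (95% interval -0.26 to 0.17). Notch3 1421964_at averaged 193 ± 35.2 in knockout and 212 ± 24.1 in wild type and changed by -0.13. Acta2, Tagln, Des and Kcnj8 had no tested probe set. Of their probe sets and the untested ones of Pdgfrb and Abcc9, 7 were blank on all 6 arrays. The other 2 were listed on 1 knockout array each, Acta2 at 277 and Tagln at 44.0.

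**Figure D2:**
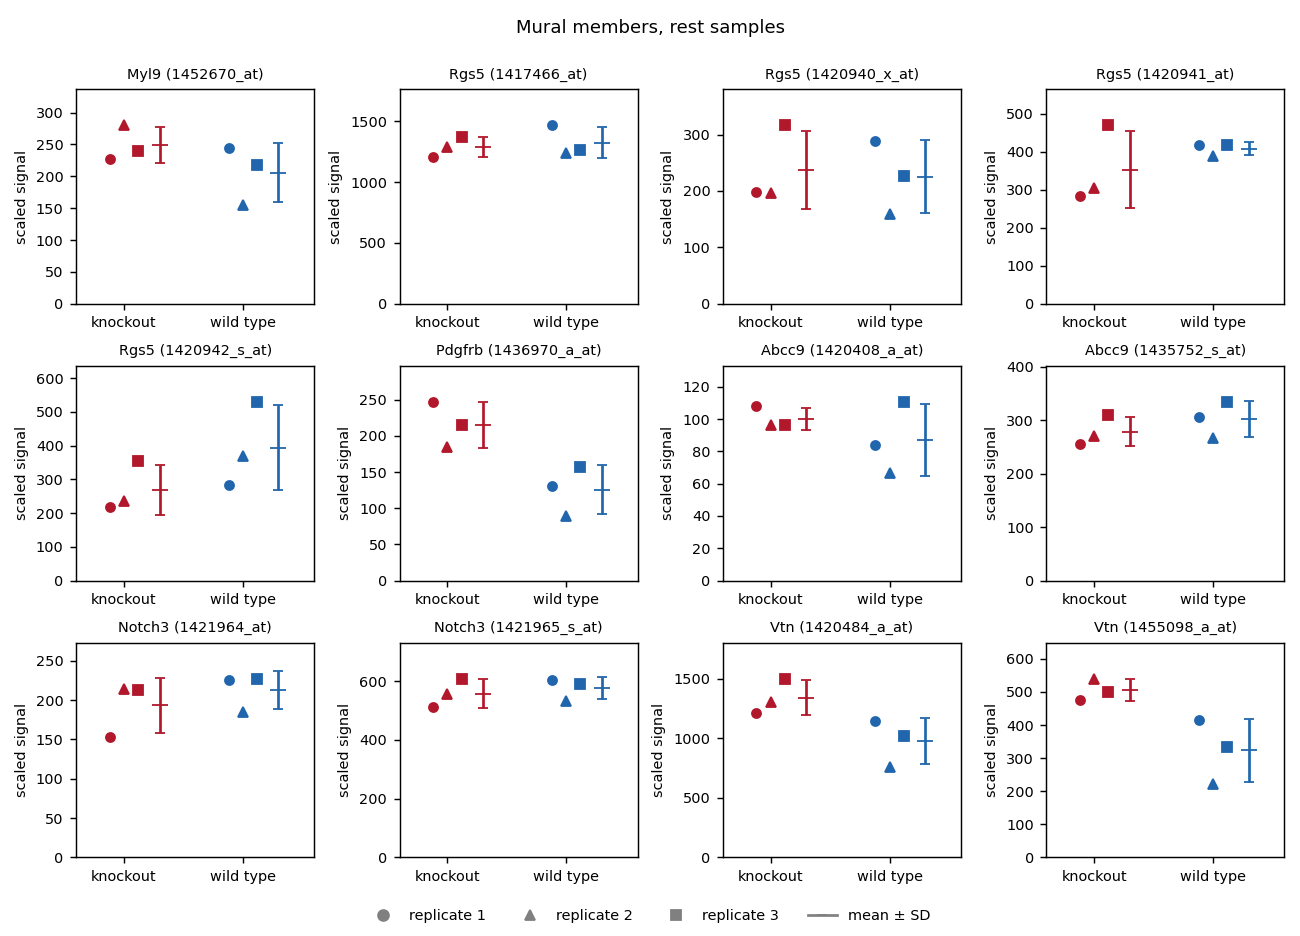
Scaled signal (linear axis from 0) of each tested member probe set in the rest samples, knockout left and wild type right, with 1 symbol per array and bars at mean ± SD. The groups separate for Vtn and Pdgfrb and overlap in the other 9 panels.

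Whether the knockout changes differed between the rest samples and the cortex was tested as an interaction on 11959 probe sets listed in both tables. None of the 11 member probe sets passed in limma, where 0.0502% of all did, and 3 had an unadjusted p under 0.05 with a negative difference, where 5.74% of all did. All 11 differences, rest minus cortex, were negative, while 52% of all differences were positive. With the sex-marker term 4 of the 11 were positive, at 0.32 and 0.15 for Rgs5 1420940_x_at and 1420941_at and at 0.22 and 0.16 for the Notch3 probe sets, and Notch3 1421964_at also turned with quantile normalization and in 5 of the 12 fits without 1 array. The largest was that of Rgs5 1420942_s_at, at -1.06 (95% interval -1.71 to -0.41, limma adjusted p = 0.229). For Rgs5 1417466_at it was -0.34 (limma adjusted p = 0.304) and for Vtn 1420484_a_at -0.53 (limma adjusted p = 0.303). The changes of Pdgfrb differed by -0.44 with an interval from -1.15 to 0.28, which allows equal changes. The rises in the cortex are therefore not shown to be larger than those in the rest samples.

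**Figure D3:**
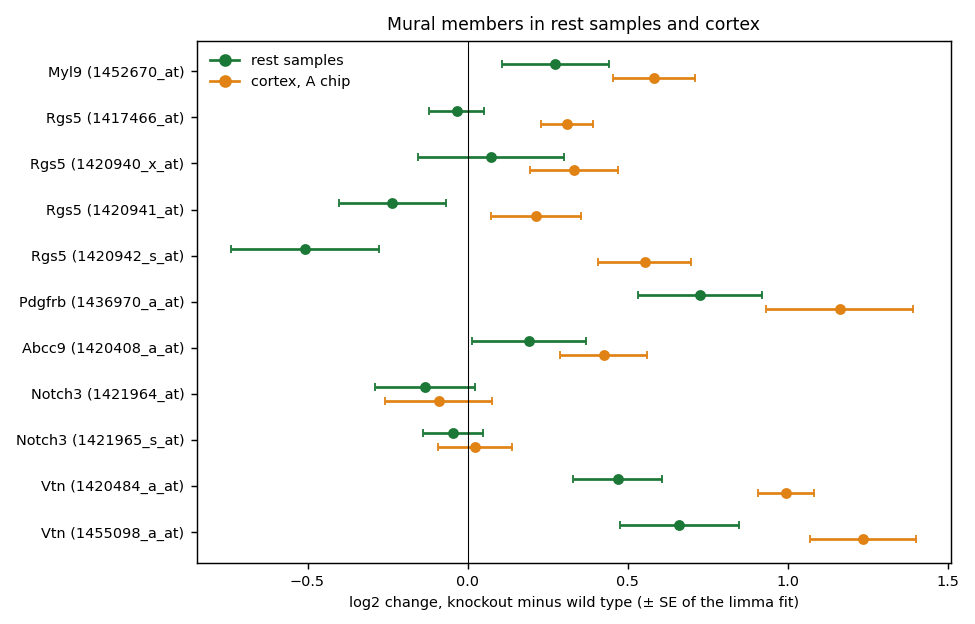
Log2 change, knockout minus wild type, of each member probe set tested in both tables, with the SE of the limma fit as bars. The cortex point lies to the right of the rest point in all 11 pairs, and no difference between them passed the test.

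Set beside other vascular and meningeal genes of the cortex A chip, the members covered a wide range. The lists compared here were chosen with earlier results of these data known, and no test was made between lists. With 1 probe set per gene, the median log2 change was 0.50 over the 6 tested members, 1.07 over 27 meningeal genes, 0.39 over 22 endothelial genes and -0.01 over all probe sets tested. Of the 6 members 3 rose, of the 27 meningeal genes 23, and of the 22 endothelial genes 7. Of all probe sets tested on the A chip 2.3% rose. By limma 0 genes of these lists fell, with 0 probe sets lower at an unadjusted p under 0.05. The 9 endothelial probe sets called became 4 without knockout replicate 2 and 5 without wild-type replicate 1, and 0 with the sex-marker term. Pdgfrb had a larger change than 15 of the 27 meningeal genes and Vtn a larger one than 13, so both lay in the middle of that list, and both changed more than all 22 endothelial genes. Myl9 exceeded 4 of the meningeal genes, Rgs5 and Abcc9 exceeded 1 each and Notch3 exceeded 0. Rgs5, Abcc9 and Myl9 lay within the endothelial range of 0.09 to 0.81.

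Of the meningeal genes, the hyaluronan-binding Itih5 had a log2 change of 2.37, the collagen Col3a1 2.01, the collagen-processing Pcolce 1.90 and the collagen Col1a1 1.82 (limma adjusted p between 2.78e-06 and 0.000872). On the B chip 3 of 4 tested meningeal genes rose, Tbx18 (2.23), Ranbp3l (1.48) and Slc13a4 (1.08), and the median was 1.28. Of all probe sets tested on the B chip 0.281% were called in either direction. Slc13a4 lost its limma call in 10 of 19 alternatives, among them leaving out any 1 array but knockout replicate 3 (adjusted p 0.0683 to 0.125), and Ranbp3l in 2, with blanks set to a low signal (0.0563) and with the sex-marker term (0.0576). The endothelial genes with the largest called changes were Pltp (0.81), Cd34 (0.81), Cdh5 (0.72) and Tie1 (0.70), with limma adjusted p between 0.00112 and 0.0367. Cd34 lost its call in 2 of 19 alternatives, one being the fit without knockout replicate 2, Cdh5 in 5 and Tie1 in 7, both without knockout replicate 2, knockout replicate 3, wild-type replicate 1 or wild-type replicate 2. The summed signal of the members, over 6 genes, was 2751 to 3002 in knockout and 1823 to 1932 in wild-type cortices. That of 25 meningeal genes was 19795 to 22691 in knockout and 9725 to 10852 in wild type, and that of 21 endothelial genes 9117 to 9481 in knockout and 6579 to 7482 in wild type. The choroid plexus gene Ttr averaged 5589 ± 383 in knockout and 3372 ± 1724 in wild type (SD, n = 3 each; limma adjusted p = 0.219), and Folr1, another choroid plexus gene, 159 ± 55.7 (n = 3) in knockout and 55.3 ± 26.0 (n = 2) in wild type (limma adjusted p = 0.0539). On the B chip the choroid plexus gene Kcnj13 averaged 669 ± 196 in knockout and 269 ± 64.8 in wild type (SD, n = 3 each; limma adjusted p = 0.0414), which no longer passed in 9 of 19 alternatives, including the removal of any 1 array but knockout replicate 1 (0.0658 to 0.169). The red cell gene Alas2 changed by -0.17 (limma adjusted p = 0.811). The part of meninges, endothelium and choroid plexus in the members' rise was not tested. Skeletal muscle, whose own actin is close in sequence to that of Acta2, had 10 of its 16 marker genes blank on all A chip arrays, and its 1 tested gene, Acta1, changed by -0.21 (limma adjusted p = 0.61). More cells of a type and more RNA per cell cannot be told apart in bulk tissue.

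**Figure D4:**
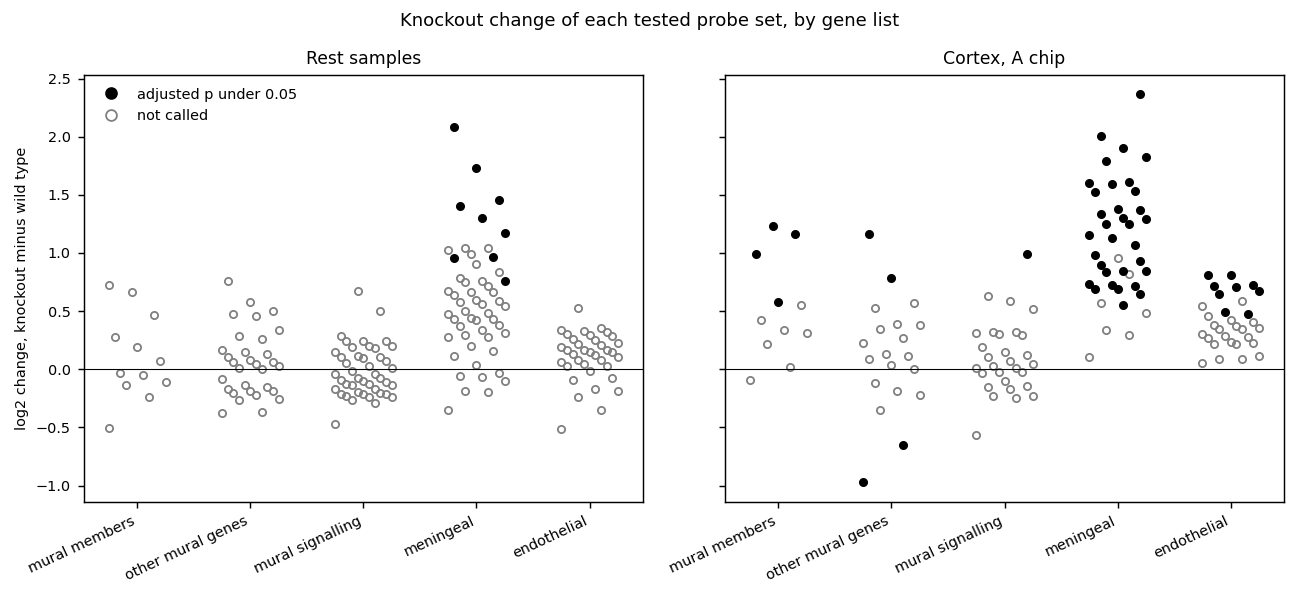
Log2 change, knockout minus wild type, of every tested probe set of 5 gene lists in the rest samples (left) and the cortex A chip (right). Filled points passed a limma adjusted p of 0.05. In the cortex the meningeal points lie highest, and Vtn and Pdgfrb reach their middle range. With 1 probe set per gene, the cortex median was 0.05 for the signalling genes and 0.20 for the other mural genes.

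In a wider list of 34 mural genes, 2 of the 12 genes tested on the A chip rose and 1 fell, and the median was 0.20. By probe set 2 rose and 2 fell, where 2.3% of all A chip probe sets rose and 0.713% fell. Over their 20 probe sets the 4 limma calls became 2 without knockout replicate 1 or wild-type replicate 1. Slc6a20a, an amino acid transporter, averaged 342 ± 24.8 in knockout and 144 ± 10.3 in wild-type cortices (SD, n = 3 each; log2 change 1.16, limma adjusted p = 0.000202). Mylk, the kinase of myosin light chain, averaged 74.3 ± 11.8 in knockout and 36.5 ± 5.92 in wild type in 1 probe set (log2 change 0.78, limma adjusted p = 0.0236). Its other probe set changed by 0.34 and was not called, and the call was lost without knockout replicate 1 (limma adjusted p = 0.0883), knockout replicate 3 (0.0782), wild-type replicate 1 (0.0949) or wild-type replicate 2 (0.061). Gucy1a1, a subunit of the nitric oxide receptor guanylate cyclase that neurons also make, fell: it averaged 166 ± 23.8 in knockout and 339 ± 37.6 in wild type (log2 change -0.97, limma adjusted p = 0.00199). The pericyte genes Higd1b (0.38) and Cspg4 (-0.35 in 1 of its 2 probe sets) did not pass. On the B chip S1pr3, a receptor for sphingosine 1-phosphate, rose to 803 ± 96.9 in knockout, against 362 ± 28.1 in wild type (SD, n = 3 each; log2 change 1.11, limma adjusted p = 0.00561).

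The ligands and downstream genes of the mural pathways were described with a list of 30. Of 21 genes tested on the A chip 1 rose and 0 fell by limma, with a median of 0.05, and at an unadjusted p under 0.05 7 of its 29 probe sets were higher and 3 lower. Over all A chip probe sets 2.3% rose and 8.99% were higher at an unadjusted p under 0.05. The share that was lower at that unadjusted level was not counted. Without knockout replicate 3 the 1 called probe set of the list became 2. The gene that rose was Tgfbr2, the type II receptor of TGF-beta, at 368 ± 22.5 in knockout and 178 ± 20.2 in wild type (SD, n = 3 each; log2 change 0.99, limma adjusted p = 0.000778). The ligand of the Pdgfrb receptor, Pdgfb, changed by 0.07 and 0.01 in its 2 probe sets. The transcription factors Srf (-0.10) and Rbpj (0.05) did not pass either. The largest changes of this A chip list without a call were in Notch genes. Hes1 changed by 0.63, Notch2 by 0.58, Heyl by 0.52 and Dll1 by -0.56 (limma adjusted p = 0.115, 0.0564, 0.104 and 0.154). Hes1 was listed on 2 knockout arrays only. On the B chip the Notch ligand Jag1 averaged 305 ± 61.2 in knockout and 162 ± 12.2 in wild type (SD, n = 3 each), with a log2 change of 0.84 that missed the threshold (limma adjusted p = 0.114).

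In the rest samples the median log2 change was 0.12 over the 6 tested members, 0.58 over 35 meningeal genes, 0.15 over 25 endothelial genes and 0.00 over all probe sets. Meningeal genes rose there in 8 of 35 cases, Tbx18 (2.09), Slc6a13 (1.73), Itih5 (1.45) and Col3a1 (1.40) among them. Of all probe sets tested in the rest samples 0.145% rose. Slc6a13 lost its call in 9 of 19 alternatives and Col3a1 in 7, both without any 1 knockout array or wild-type replicate 3, and Slc6a13 also without wild-type replicate 2. The 9 meningeal probe sets called became 2 to 4 without any 1 of the arrays other than wild-type replicate 1. In the wider mural, signalling and endothelial lists 0 of the 31, 44 and 36 tested probe sets were called by limma. At an unadjusted limma p under 0.05, 5, 3 and 4 of them were higher, where 4.47% of all probe sets were, and 3, 4 and 1 lower. The share of all probe sets that were lower was not counted, so the lower counts have no such comparison. Pdgfrb had a larger change than 22 of the 35 meningeal genes and Vtn a larger one than 15, while Rgs5, Notch3 and Abcc9 exceeded 3, 3 and 2. As in the cortex, Pdgfrb and Vtn had more positive changes than all endothelial genes tested. In the other direction the endothelial gene Mfsd2a changed by -0.51 (limma adjusted p = 0.241). This was larger in size than the change of Vtn 1420484_a_at (0.47) and smaller than that of Vtn 1455098_a_at (0.66).

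The genes outside these lists whose signal ran most like the mean of the 6 members were sought over the 12 arrays of the A chip and the rest table, with each table set to mean 0 and SD 1, among 6630 genes. Mrc1, the mannose receptor of macrophages at the borders of the brain, came first (Pearson r = 0.985), followed by the basement membrane gene Nid1 (0.972), Wasf2 (0.969), Cd164 (0.969) and Ctnna1 (0.968). The genotype is shared by these points, so the likeness includes the knockout difference itself. In the cortex Mrc1 changed by 1.20 and Nid1 by 1.13 on the log2 scale (limma adjusted p = 0.000839 and 0.00429), and in the rest samples by 0.30 and 0.31 without passing.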

How the data were processed

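The data are 18 Affymetrix arrays of mouse brain RNA. The deposited tables hold 1 intensity per probe set and array, unlogged, computed with MAS5 per the submitters' processing notes, which give no version. TRIZOL extraction and the standard Affymetrix protocol are named by the labels. All columns were mapped to samples by title. The number of arrays limits the precision.

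Controls were dropped. Arrays of a table were brought to 1 level by their trimmed mean (2% off each end) over the probe sets that all 6 arrays list, then log2(signal + 16) was taken. A probe set was tested where at least 2 arrays of each genotype listed it. Blanks were left missing, so Rgs5 1420940_x_at has n = 2 in wild type. Knockout and wild type were compared within each table using limma 3.58.1 under R 4.3.3 (lmFit, eBayes with an intensity trend, no covariate), adjusted by Benjamini and Hochberg over all probe sets tested and called at an adjusted p under 0.05. For 3 arrays against 3, a permutation test could not go below 0.1 and was not used. The rest minus cortex difference was an interaction term in a joint fit. Symbols came from the platform annotation, updated through RefSeq. Probe sets with several genes (691, 245 and 932 in the A chip, B chip and rest tables) were tested but not named. Affymetrix marks with _s_at and _x_at probe sets that can read more than 1 transcript, and the near-identical actin genes make Acta2 1416454_s_at uncertain in this way.

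The members and all gene lists were chosen with earlier results of these data known. Named are all probe sets of the members, of each other list up to 4 called genes with the largest change or else the 2 with the lowest p, and the 5 most alike genes. Higd1b, Cspg4, Pdgfb, Srf, Rbpj, Cald1, Tpm1, Tpm2 and Pln, and the second probe set of Mylk, were added after their values were seen. So were Hes1, Notch2, Heyl and Dll1. List medians use the brightest probe set per gene. The limma script was tested on simulated data. Alternatives were 3 other scalings, offsets of 1 and 64, eBayes without trend and robust, array weights, a replicate block, probe sets listed on every array, blanks set to a low signal, a filter on dim probe sets, a sex-marker term and each array left out. The filter on dim probe sets removed no tested probe set. It is counted among the alternatives but could not change a result.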

Additional observations from a re-analysis of the deposited data

Results flagged for a closer look

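Signals appeared for the 2 smooth muscle members Acta2 and Tagln in the rest table, outside the tested probe sets. Acta2 1416454_s_at was listed in knockout replicate 2 alone, at a scaled signal of 277, and was blank on the other 2 knockout arrays and on all 3 wild-type arrays. Tagln 1423505_at was listed in knockout replicate 3 alone, at 44.0, and was blank on the other 5 arrays. Both drew attention because a value stood in a knockout array where the wild-type arrays had none. A blank has no level here, so no fold and no test is given. The groups of 3 arrays were too small for a test of single outlying arrays.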

How the results depend on the processing

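The rise of Vtn 1420484_a_at in the cortex was called under all 19 alternatives, with log2 changes from 0.90 to 1.06, and Vtn 1455098_a_at lost its call only with the sex-marker term (1.11, limma adjusted p = 0.0982). Pdgfrb lost it in 6 of 19 alternatives and Myl9 in 10 of 19, with their direction unchanged, among them blanks set to a low signal (limma adjusted p = 0.0549 for Pdgfrb and 0.0644 for Myl9). The 4 member calls of the A chip became 2 with blanks set to a low signal, 1 with the sex-marker term, and 2 to 3 with 1 array left out. Calls of members on the B chip, in the rest table and for the rest minus cortex difference stayed at 0 under all alternatives run. The members' median of 0.50 was 0.60 with an offset of 1, 0.37 with an offset of 64 and 0.44 with the sex-marker term. For the meningeal list of the A chip, the median of 1.07 was 0.84 with an offset of 64, 0.98 with probe sets listed on every array or blanks set to a low signal, 0.97 with the sex-marker term and 0.95 to 1.14 with 1 array left out, and its 33 calls became 20 with the sex-marker term. The meningeal median on the B chip, 1.28, was 1.48 with blanks set to a low signal and 1.02 with the sex-marker term, and its 3 calls became 1 with that term. The 9 meningeal calls of the rest table were 2 without a variance trend, 1 with the sex-marker term and 2 to 10 with 1 array left out, with a median of 0.44 to 0.81. The 9 endothelial calls of the A chip became 0 with the sex-marker term and 4 to 9 with 1 array left out.

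Some changes with values between -0.45 and 0.07 turned their direction, and none of these was called. With the sex-marker term, changes became -0.081 for Notch3 1421965_s_at in the cortex, and 0.054 for Rgs5 1417466_at, 0.20 for Rgs5 1420941_at, 0.036 for Abcc9 1435752_s_at, 0.0080 for Notch3 1421964_at and 0.079 for Notch3 1421965_s_at in the rest table. The rest minus cortex differences became 0.32 for Rgs5 1420940_x_at, 0.15 for Rgs5 1420941_at, 0.22 for Notch3 1421964_at and 0.16 for Notch3 1421965_s_at with it, and 0.040 for Notch3 1421964_at with quantile normalization. With 1 array left out, the cortex change ranged from -0.18 to 0.050 for Notch3 1421964_at, from -0.067 to 0.098 for Notch3 1421965_s_at and from -0.45 to 0.15 for the red cell gene Alas2. The rest change then ranged from -0.080 to 0.041 for Rgs5 1417466_at, -0.14 to 0.26 for Rgs5 1420940_x_at, -0.23 to 0.015 for Notch3 1421964_at, -0.11 to 0.015 for Notch3 1421965_s_at and -0.46 to 0.067 for Alas2, and the difference from -0.18 to 0.10 and -0.14 to 0.021 for the 2 Notch3 probe sets. The cause of these shifts was not tested.

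Replicate numbers were not used to pair the samples in the main fits. Deviations of same-numbered knockout and wild-type arrays correlated at 0.0093, 0.019 and -0.0088 (A chip), 0.16, 0.072 and 0.14 (B chip) and 0.023, 0.067 and 0.25 (rest table). All values of the B chip and the rest table were positive, and what same-numbered arrays share there was not tested. With the replicate block, 3 member probe sets were called on the A chip, Myl9 being lost (limma adjusted p = 0.0603), as was Mylk (0.0502), and 0 on the B chip, in the rest table and for the difference. Calls over all probe sets were then 305, against 364 without the block, for the A chip, 12 against 22 for the B chip and 142 against 67 for the rest samples. Over all alternatives these calls ranged from 82 (sex-marker term) to 385 (array weights) for the A chip, 9 (no variance trend) to 58 (array weights) for the B chip, 10 (sex-marker term) to 142 for the rest samples and 0 (sex-marker term) to 28 (without knockout replicate 3 of the rest table), against 6, for the difference. The 4 calls of the wider mural list of the A chip became 1 with the sex-marker term, and its 1 call of the B chip became 2 without scaling, with median centring or with array weights. What limits the results is the blanks, which leave Acta2, Tagln, Des and Kcnj8 without a test, the 3 arrays per group, and the sex pattern that only knockout replicate 3 shares with the wild type.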
